A study of Arabidopsis thaliana with 12 samples.

Results

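The regions described here were accessible in uncut Arabidopsis thaliana roots and held no read in any of 9 libraries from roots that were regrowing a removed tip. Accessibility was measured by ATAC-seq, in which the Tn5 transposase inserts sequencing adapters into DNA that is not covered by nucleosomes, so that reads pile up at open regions. A region entered the set when its coordinates were identical in all 12 count files, its level was above 3 CPM in each of the 3 uncut libraries, and its count was 0 in each of the 9 regenerating libraries. CPM is the count per 1 M reads that the library held in the shared regions. Of 99054 shared regions, 94247 were above 3 CPM in each uncut library and 1394 (1.41% of the shared regions) met the whole rule. The regions were selected on the counts of these 12 libraries, so the absence of reads is its definition and not a finding. The comparisons below rest on position, annotation, width and the regions next to the set. Of these, width is tied to the counts, since wider regions collect more reads.

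The regenerating groups were roots 2.5 h, 14 h and 16 h after excision of about 130 µm of the tip, from seedlings with the MP::MP-GFP genotype, in which a GFP fusion of the auxin response factor MONOPTEROS (MP) is driven by the MP promoter. Cells of a stretch of roughly 200 µm above the wound were sorted on GFP, and 1000 nuclei went into each library, except 2000 in 16 h replicate 3. The uncut roots had the Col-0 genotype, and 50000 nuclei per library were taken from cells stained with DAPI. All seedlings were 7 DAS, and each group held 3 libraries. The labels name no accession for the MP::MP-GFP seedlings. Line, sort marker, number of nuclei and excision all differ between each regenerating group and the uncut roots, so they cannot be told apart. Likewise, a smaller share of nuclei with an open region and less insertion per nucleus cannot be told apart in these bulk libraries.

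The libraries of 2.5 h held 3.90, 2.39 and 1.44 M reads in the shared regions, those of 14 h held 7.67, 7.81 and 12.4 M, those of 16 h held 1.45, 1.95 and 1.24 M, and the uncut libraries held 28.1, 22.2 and 19.8 M. The 2.5 h libraries stood apart in that 28.3%, 27.4% and 37.3% of all shared regions had no read, against 2.83% to 6.52% in the libraries of 14 h and 16 h and 0% in uncut roots. Without the 2.5 h libraries, the rule selected 1481 regions instead of 1394. The lists of root cell type and leaf markers, 41 genes with a region, held no selected region and no gene at 0 in all 9 libraries. Some of the lists differed in level between the groups. The 10 stele and vasculature markers summed to between 766 and 920 CPM in the 2.5 h libraries, 850 and 903 in those of 14 h and 833 and 937 in those of 16 h, against 637 to 662 CPM in uncut roots. The 8 epidermis and root hair markers went the other way, with 248 to 324, 322 to 343 and 318 to 358 CPM at the 3 times, against 359 to 371 CPM in uncut roots. Root cap markers were above the uncut range at 2.5 h and 14 h, and those of the quiescent centre and stem cell niche at 2.5 h, while the cortex and endodermis list and the leaf and photosynthesis list overlapped with uncut roots at each time. The part of these shifts in the results was not tested.

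In plant genomes, accessible regions lie mostly at the starts and ends of genes, while the DNA around centromeres is rich in transposons, poor in genes and largely packed in heterochromatin. Immune receptor genes of the NBS-LRR type, which detect pathogen effectors inside the cell, often stand in tandem arrays of related copies. Both kinds of sequence recur below.

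The unread regions were ordinary in level in uncut roots. Their median was 6.88, 6.43 and 6.51 CPM in uncut replicates 1, 2 and 3, and single values ran between 3.01 and 89.8 CPM. The mean over the uncut libraries had a median of 6.61 CPM over the unread regions, against 7.56 CPM over all regions above the same limit. These levels correspond to a median of 193, 143 and 129 reads per region in the 3 uncut libraries, and to at least 60 reads in each case. The uncut replicates differed little at these regions, with a median coefficient of variation of 11.2%, against 10.1% for all regions above the limit.

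A count of 0 does not show a level of 0. Taking 3 reads as the limit, a single library of 2.5 h could have hidden up to 0.769, 1.26 and 2.08 CPM, one of 14 h up to 0.391, 0.384 and 0.241 CPM, and one of 16 h up to 2.07, 1.54 and 2.42 CPM. Summed, the 9 libraries held 40.3 M reads in the shared regions and the limit was 0.0745 CPM. The mean uncut level of the unread regions was 42.5 to 1095 times that limit, with a median of 88.8. Over the 3 libraries of a time, the limit came to 0.388 CPM for 2.5 h, to 0.107 for 14 h and to 0.647 for 16 h. These limits cover counting error only, since copies of a fragment made by PCR may have been counted more than once. They also make no allowance for the choice of the regions by their counts of 0, so the true levels may have been higher. The authors' deposited table for 14 h lists all 1394 with an adjusted p under 0.05, from the same counts that chose the set. In edgeR's quasi-likelihood test, all 1394 were called lower at each time, but the rule used these contrasts and nothing is read from that count. At 2.5 h it was 576, 493 and 470 without uncut replicates 1, 2 and 3, and 1172 with DESeq2, with all 1394 tested each time. At 16 h it was 879, 873 and 874 without those replicates, which was every unread region tested in those fits. With all 12 libraries in 1 fit, the count at 16 h was 1133 of 1394 tested. Over all regions tested, 7.93% were called lower at 2.5 h, 5.34% at 14 h and 6.68% at 16 h, while 0.0495%, 0.757% and 2.18% were called higher.

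**Figure D1:**
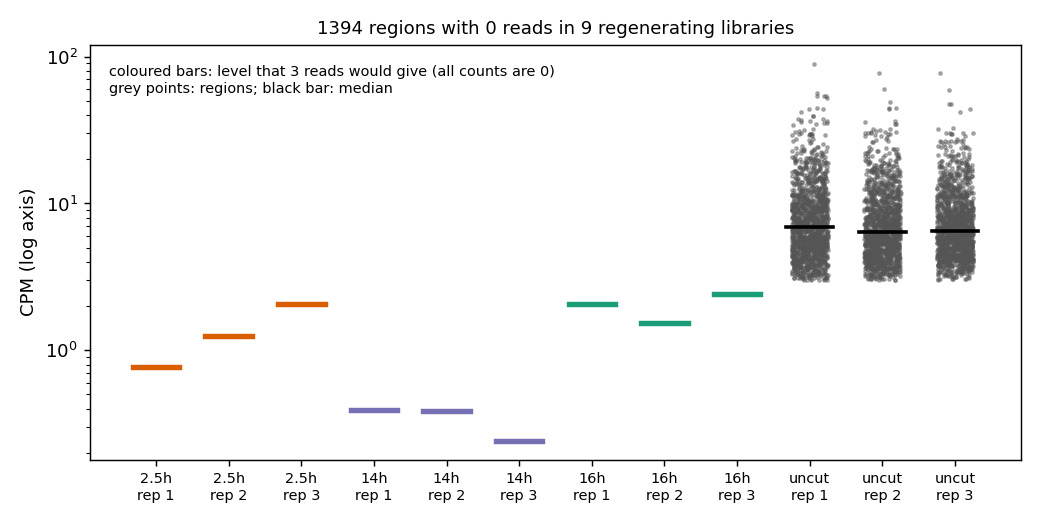
Level of the 1394 unread regions in each library, in CPM on a log axis. Coloured bars give the level that 3 reads would have had in the regenerating libraries, where every count was 0, grey points are single regions in the uncut libraries, and black bars are their medians of 6.88, 6.43 and 6.51 CPM; the bars at 16 h and in 2.5 h replicate 3 lie closest to the points.

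At the edge of the rule, the regions just inside had a lowest uncut level of 3.01 CPM and were assigned to AT1G51870, AT2G13547 and FIB. Those just outside stood at 2.99 CPM (the immune receptor gene RPP4) and 2.98 CPM (AT1G34750 and AT2G05360). In all, 150 further regions had no read in the 9 libraries but did not exceed 3 CPM in each uncut library. Just past the other edge, 166 regions above the limit had exactly 1 read over all 9 libraries, 105 had 2 and 75 had 3. More regions thus had exactly 0 reads than had 1 to 10 reads (722).

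All 1394 unread regions lay on chromosomes 1, 2 and 4. Chromosome 1 held 587 of its 25218 shared regions (2.33%), chromosome 2 held 594 of 16068 (3.70%) and chromosome 4 held 213 of 15439 (1.38%). Chromosome 3 held 0 of 19950 and chromosome 5 held 0 of 22379. Were regions independent, these counts would allow shares of up to 0.0150% and 0.0134%. The unread regions were grouped, as described below, so these limits are too narrow. The regions with 1 to 10 reads, which the rule left out, were likewise nearly absent from chromosomes 3 and 5, with a larger part on chromosome 4: 239 lay on chromosome 1, 275 on chromosome 2, 207 on chromosome 4, 1 on chromosome 3 and 0 on chromosome 5. The 150 regions below the uncut limit also lay on chromosomes 1, 2 and 4, at 68, 55 and 27 regions.

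The times differed in how sharply the chromosomes were separated. With the uncut limit kept and a count of 0 required in the 3 libraries of 1 time alone, 1798 regions were unread at 14 h, of which 3 lay on chromosome 3 and 0 on chromosome 5. At 16 h there were 2205, of which 8 lay on chromosome 3 and 0 on chromosome 5. At 2.5 h there were 6149, of which 666 lay on chromosome 3 and 671 on chromosome 5. The 2.5 h libraries thus left regions of every chromosome unread, and they were also those in which the most shared regions had no read. Chromosome 4 had 609 unread regions at 16 h and 307 at 14 h, whereas chromosomes 1 and 2 had similar numbers at both times, 792 and 796 at 16 h and 727 and 761 at 14 h. Whether these counts differ between times beyond the depth of the libraries was not tested.

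**Figure D2:**
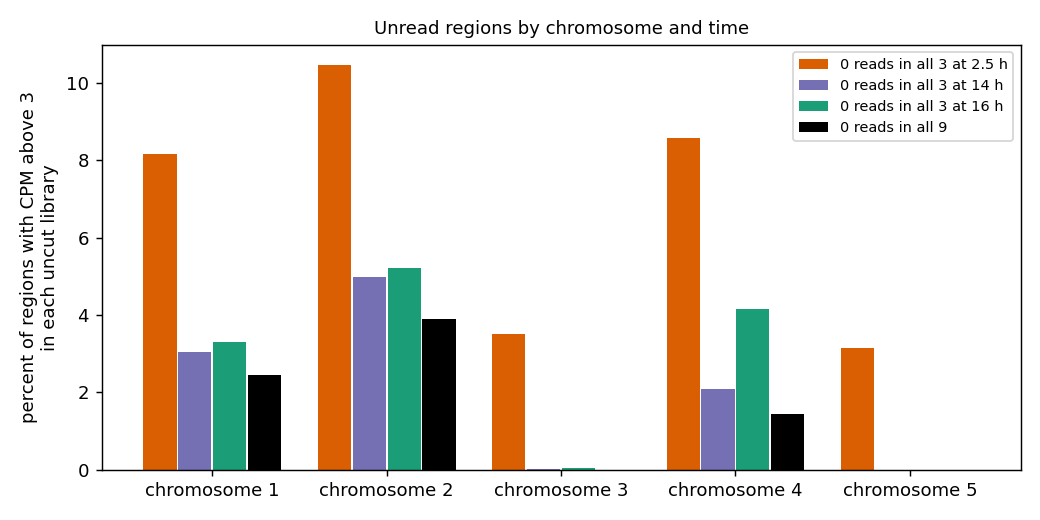
Percent of the regions above 3 CPM in each uncut library that had no read, by chromosome, for the 3 libraries of each time and for all 9. Chromosomes 3 and 5 have black bars of 0 and orange bars above 3%, while chromosome 2 has the highest bar of each colour.

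On chromosomes 1 and 2 the unread regions were concentrated around the centromeres, whose positions were taken as approximate. Within 3 Mb of the centromere lay 350 of the 587 on chromosome 1 (59.6%), against 15.4% of its shared regions, and 476 of the 594 on chromosome 2 (80.1%), against 27.0%. On chromosome 4 these were 81 of 213 (38.0%), against 30.3%. Its shares were highest between 1 and 2 Mb (5.24%) and between 10 and 11 Mb (5.20%). The first of these stretches, at the outer edge of the 3 Mb reach, held 44 of the 81, and the second lay outside that reach. The 27.0% for chromosome 2 counts its whole length, including 8932 shared regions past its last unread one, which widens the contrast there. Cut into windows of 1 Mb, the genome had 121 windows with shared regions, and in 15 of these at least 5% of the regions were unread. The 15 windows held 1005 unread regions (72.1%) and 10.7% of all shared regions. The highest share was found on chromosome 1 between 15 and 16 Mb, where 102 of 483 regions (21.1%) were unread, followed by chromosome 2 between 4 and 5 Mb with 115 of 725 (15.9%). On chromosomes 1, 2 and 4, 15 of 70 windows held no unread region, and on chromosomes 3 and 5 all 51 held none.

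Chromosome 2 was divided. Its first unread region began at 31750, close to AT2G01035, and the last ended at 9332613 in CAD3, a homolog of cinnamyl alcohol dehydrogenase, which acts in lignin synthesis. Up to that point, 594 of 7136 shared regions (8.32%) were unread. The remaining 10.4 Mb held 8932 shared regions with 0 unread, and 4 with 1 to 10 reads. Chromosome 1 had unread regions over most of its length, the first at 431313 in the promoter of NAC003 and the last ending at 27434656 at AT1G72910, with the quartiles of their positions at 11520588 and 16572562. Chromosome 4 was covered between 413480 at AT4G00960 and 17716529, with quartiles farther apart, at 2143000 and 10919388. Coordinates are those of the deposited files, whose build is TAIR10 per the submitters' processing notes.

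The unread regions were grouped along the chromosomes. The shared region next along the chromosome was itself unread for 684 of 1394 (49.1%), while 1.41% of all shared regions were unread. The share was 51.3% on chromosome 1, 51.3% on chromosome 2 and 36.6% on chromosome 4. Counted as unbroken runs of consecutive shared regions, there were 710 runs, of which 411 held 1 region and 299 held at least 2. Runs of at least 2 contained 983 unread regions (70.5%), and 56 runs had at least 5.

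The median distance between an unread region and the one before it was 1445 bp, and 73.3% of these distances were within 10 kb. All shared regions, of which there are far more, had a median distance of 557 bp, and 99.8% were within 10 kb. Joined across gaps of up to 10 kb, the set formed 375 groups, of which 150 had at least 3 regions; those 150 are called clusters here. They held 1107 unread regions (79.4%), with 59 clusters on chromosome 1, 70 on chromosome 2 and 21 on chromosome 4. A cluster spanned 6.41 kb at the median and 85.2 kb at most. Only 163 unread regions stood alone. Since position was not part of the rule, this spacing describes the set without having been built into it.

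**Figure D3:**
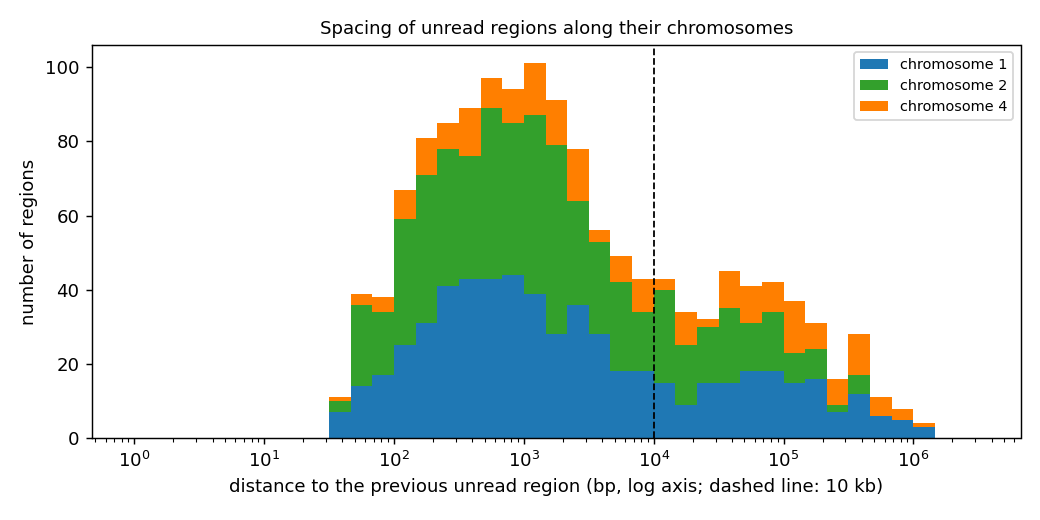
Distance from each unread region to the one before it on its chromosome, in bp on a log axis, stacked by chromosome. Most distances lie left of the dashed line at 10 kb, which joins regions into a cluster, around a median of 1445 bp, and a smaller second rise lies between about 10 kb and 1 Mb.

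The longest run, 15 consecutive unread regions over 11805 bp, lay on chromosome 4 from 10643376 to 10655180, in and between the immune receptor genes AT4G19520 and AT4G19530. Their uncut levels ran between 3.36 and 12.9 CPM. The next run had 13 regions from 4479730 to 4491346 on chromosome 2, at AT2G11225 and AT2G11271, both annotated as hypothetical proteins, at 3.93 to 17.4 CPM in uncut roots. A run of 12 lay on chromosome 1 from 15850712 to 15871383, nearest to the noncoding RNA gene AT1G07117, at 3.55 to 11.2 CPM. A run of 11 lay on chromosome 2 from 3978332 to 3984260, nearest to the noncoding RNA gene AT2G05505, at 4.94 to 33.3 CPM. Apart from the first, these runs thus lay outside annotated genes or at genes of unknown role.

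The cluster with the most unread regions, 38 of its 58 shared regions, spanned 55.5 kb on chromosome 2 from 4477819 to 4533342 and contained the run at AT2G11225. A cluster of 30 among 44 regions lay on chromosome 1 from 15722551 to 15772752, assigned to AT1G42080, the tRNA gene AT1G42120 and AT1G42190, which is annotated as a GAG/POL/ENV polyprotein and so as part of a retroelement. On chromosome 4, 22 of 37 regions between 10625789 and 10655180 were unread, at AT4G19500, AT4G19510, AT4G19520 and AT4G19530. The widest cluster, 85.2 kb on chromosome 4 from 1613477 to 1698720, was looser, with 18 of 73 regions unread.

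Most unread regions were intergenic by the class that the authors' deposited table gives each region. The class was intergenic for 931 (66.8%), against 15.8% of all shared regions, and exon for 135 (9.68%), against 42.9%. Promoters made up 173 (12.4%), against 21.2%, transcription ends 122 (8.75%), against 18.0%, and introns 33 (2.37%), against 2.19%. Seen from the other side, 10.4% of the intergenic regions of chromosomes 1, 2 and 4 were unread and 0.557% of the exon regions. The distance to the nearest transcription start had a median of 3376 bp in the set, against 1085 bp over regions above the uncut limit.

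The difference in class was also present within each kind of window. In the 15 windows rich in unread regions, 76.4% of the unread and 45.3% of all shared regions were intergenic. In the other windows of chromosomes 1, 2 and 4 the shares were 41.9% of the unread and 9.002% of all shared regions. Chromosome 4 differed from the others in its classes, with 46.0% intergenic, 22.1% promoter and 19.2% exon regions among its unread regions, while 66.1% were intergenic on chromosome 1 and 74.9% on chromosome 2.

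**Figure D4:**
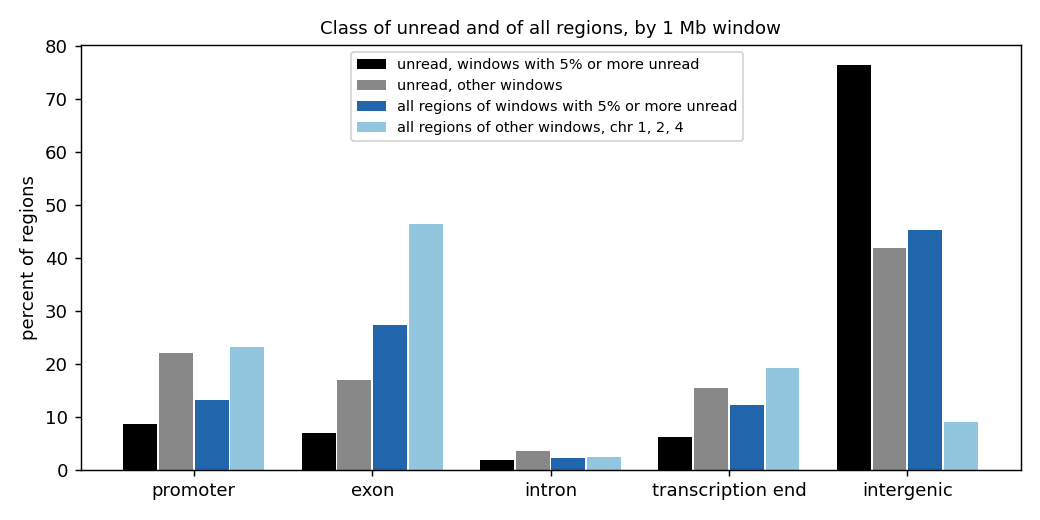
Class of the unread regions and of all shared regions, in percent, for the 15 windows of 1 Mb with at least 5% unread regions and for the other windows. In both kinds of window the intergenic bar is higher for the unread regions (76.4% and 41.9%) than for all regions (45.3% and 9.002%), and the exon bar is lower.

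The unread regions were slightly narrow. Their width had a median of 125 bp, with quartiles of 87 and 189 bp, against a median of 141 bp and quartiles of 100 and 225 bp for regions above the same uncut limit. Widths in the set ran between 15 and 1526 bp. The median width differed little between classes, from 120 bp in promoters to 138 bp in exons. The widest regions were both upstream of AT2G14635, annotated as an ARABIDILLO protein, at 1526 and 872 bp, followed by the promoter of AT4G20700 at 791 bp. Level per length was close to that of other regions, at a median of 52.6 CPM per kb in uncut roots, against 54.2 CPM per kb.

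A gene could be given to 1332 unread regions, 453 by the annotated feature they lay in and 879 by the nearest transcription start, and 62 had none. They were assigned to 533 of 28159 genes with a shared region (1.89%), or 3.31% of the 16115 such genes of chromosomes 1, 2 and 4. Of these, 446 were protein coding and 74 were long noncoding RNA genes, which made up 13.9% of the genes with an unread region and 9.19% of all genes of the 3 chromosomes. A single unread region was assigned to 294 genes, and 75 genes had at least 5. AT1G42190 had the most, 31 of 46 regions, followed by the noncoding RNA genes AT1G07117 with 19 of 28 and AT2G05875 with 18 of 31. A gene assigned by the nearest start need not be related to the region.

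At 78 genes every shared region was unread, but 56 of these had a single region. The 7 with at least 3 regions were AT1G44478, annotated as a cyclophilin, with 8 of 8, the noncoding RNA gene AT2G06945 with 7 of 7, AT2G11015 and AT1G06443 with 5 each, AT2G02695 with 4, and AT1G33945 and AT1G52950 with 3 each. The other 455 genes also had regions outside the set, 3421 in all, of which 99 were at 0 in the 9 libraries and the median had 108 reads over them. Genes at which every shared region met the rule were thus the exception among genes with an unread region. Genes whose remaining regions kept only a few reads, such as GLR2.4 and AT4G19520 below, are not among the 78.

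The highest unread region in uncut roots lay upstream of AT2G14635, on chromosome 2 from 6259062 to 6260587, at 89.8, 77.4 and 77.5 CPM. A second region of that gene, from 6256766 to 6257637, had 53.6, 44.9 and 41.9 CPM. The promoter of AT4G20700, a gene with a putative reverse transcriptase, on chromosome 4 from 11097656 to 11098446, had 54.0, 59.9 and 59.6 CPM. The mean uncut level was 1095 times the summed limit for the first, 628 times for the second and 776 times for the promoter of AT4G20700.

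The promoter of AT1G44478, the cyclophilin, on chromosome 1 from 16853482 to 16854226, had 53.8, 48.8 and 47.4 CPM in the uncut replicates. The promoter of GulLO1, an oxidase of the gulonolactone type, which belongs to the ascorbate pathway, on chromosome 1 from 11650206 to 11650612, had 56.3, 44.4 and 43.8 CPM. The transcription end of AT1G34040, a pyridoxal phosphate-dependent transferase, on chromosome 1 from 12376993 to 12377742, had 52.1, 44.3 and 47.4 CPM. These genic regions had uncut levels about as reproducible as those of the set as a whole. Taking 1 region per gene, the other regions among the 8 highest were intergenic and lay far from the start of the gene they were assigned to, at 36.4 ± 6.99 CPM for AT2G12945, 35.6 ± 7.89 CPM for AT1G42190 and 35.4 ± 7.74 CPM for AT2G13150 (SD, n = 3 uncut libraries).

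Among gene families, transposon genes had the largest share with an unread region: 12 of 51 on chromosomes 1, 2 and 4 (23.5%), with 52 unread regions, against 3.31% of all genes there. NBS-LRR immune receptors came next at 8 of 79 genes (10.1%, 32 regions), followed by F-box proteins, the substrate-binding parts of ubiquitin ligases, at 21 of 287 (7.32%), and hypothetical proteins at 102 of 1541 (6.62%). Defensin-like peptides stood at 6 of 126 genes (4.76%) and cytochromes P450 at 5 of 122 (4.10%). Below the share of all genes were kinases of any kind at 17 of 767 (2.22%), oxidoreductases at 8 of 368 (2.17%), transcription factors at 18 of 834 (2.16%), cell wall proteins at 4 of 287 (1.39%), transporters at 5 of 463 (1.08%) and glycosyltransferases at 0 of 87. The families were drawn from words in the gene descriptions, can share genes and were not tested, since their genes differ in position and in the number of regions.

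Within the families, the regions with the highest uncut levels were as follows. For the F-box genes these were the transcription end of AT1G53815 at 22.8, 21.1 and 21.3 CPM, an intron of AT2G05360 at 19.9, 15.8 and 17.2 CPM and a region near AT1G31090 at 19.1, 16.2 and 15.2 CPM. The leucine-rich repeat kinase gene AT2G19230 had an exon region at 21.0, 21.1 and 19.6 CPM. Regions of CYP705A13 (22.2 ± 2.19 CPM), CYP71A27 (10.3 ± 0.94 CPM) and CYP705A27 (7.71 ± 1.22 CPM) led the cytochromes P450, enzymes of specialised metabolism. LCR10, LCR84 and AT2G06166, which encode small cysteine-rich peptides, had 18.4 ± 0.97, 11.2 ± 1.19 and 10.7 ± 0.69 CPM (SD, n = 3 uncut libraries). The regions of XTH10, a xyloglucan endotransglucosylase of the cell wall, and of the calcium pump ACA1 were lower, at 6.69 ± 0.36 and 5.98 ± 0.15 CPM. All of these had 0 reads in the 9 regenerating libraries.

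The NBS-LRR genes showed how unread regions lie within a gene. In AT4G19520, 11 of 12 regions were unread, and the remaining region had 2 reads in 16 h replicate 1 and none in the other 8 regenerating libraries, against 107, 119 and 94 reads in uncut roots. In AT4G19510, 2 of 10 regions were unread, the higher in its first exon, on chromosome 4 from 10633772 to 10634085, at 21.7, 17.5 and 20.6 CPM in uncut roots. Its other 8 regions summed to 0 CPM in each 2.5 h library, to 5.48, 6.40 and 7.97 CPM in those of 14 h and to 4.82, 5.13 and 4.84 CPM in those of 16 h, against 44.5, 48.3 and 50.4 CPM in uncut roots. The other regions of both genes were therefore low in every regenerating library as well, without overlap with uncut roots.

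At AT1G58602, on chromosome 1, 8 of 20 regions were unread. The other 12 summed to 0, 10.9 and 22.2 CPM in the 2.5 h libraries, to 9.91, 16.4 and 13.4 CPM in those of 14 h and to 7.58, 8.72 and 12.9 CPM in those of 16 h, against 128, 122 and 125 CPM in uncut roots. AT4G19530 differed: 6 of its 8 regions were unread, but the other 2 summed to 8.20, 3.35 and 34.0 CPM in the 2.5 h libraries, to 16.8, 17.4 and 17.8 CPM in those of 14 h and to 17.2, 13.9 and 22.6 CPM in those of 16 h, against 12.9, 12.6 and 12.8 CPM in uncut roots. There, regions with no read stood beside regions that were no lower than in uncut roots at 14 h and 16 h. AT2G14080, with 1 of 9 regions unread, had 15.3 to 42.0 CPM over its other regions in the 9 libraries, against 41.3 to 45.4 CPM in uncut roots, and 1 library, 16 h replicate 1, lay within the uncut range.

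GLR2.4, ACD6, ORA59 and BBX15, chosen after their values were seen, covered the same range. GLR2.4, a glutamate receptor-like channel gene, had 6 of 7 regions unread, and the remaining region had 1 read in the 9 libraries, against 283, 279 and 266 reads in the uncut replicates. ACD6, an ankyrin-repeat protein that promotes salicylate-dependent defence, had an unread exon region on chromosome 4 from 8296210 to 8296775 at 29.7, 30.3 and 26.5 CPM in uncut roots. Its other 4 regions summed to 6.66 to 18.98 CPM in the 9 libraries, against 39.5 to 49.5 CPM in uncut roots, so that the groups did not overlap. At ORA59, a jasmonate and ethylene response factor, and BBX15, a B-box zinc finger factor, the regions outside the set overlapped with uncut roots: 5.55 to 51.6 CPM against 23.3 to 25.4 CPM at ORA59, and 30.6 to 62.0 CPM against 44.1 to 50.04 CPM at BBX15. The unread regions were the promoter of ORA59 (3.83 ± 0.46 CPM in uncut roots) and 3 of 5 regions of BBX15, including its transcription end at 39.4, 36.1 and 30.4 CPM.

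Regions next to the set were low too, although they did not meet the rule. Inside the 150 clusters lay 709 shared regions outside the set. Over the 9 libraries, 380 of them had more than 10 reads, 259 had 1 to 10 and 70 had 0. Those 70 were left out by the uncut limit alone. All 709 together had a median of 13 reads over the 9 libraries, against 340 for all regions outside the set. The median uncut levels were close, at 6.90 and 7.30 CPM. Summed over the 709 regions, the level was 20.1 ± 2.58% of the uncut mean at 2.5 h, 18.3 ± 0.64% at 14 h and 19.5 ± 1.06% at 16 h (SD, n = 3 libraries each). The uncut libraries ranged between 94.2% and 107.6% of that mean. In edgeR's test, 466 of 706 such regions tested passed as lower at 2.5 h (66.0%), 448 of 707 at 14 h (63.4%) and 485 of 703 at 16 h (69.0%). Over all regions tested, the shares were 7.93%, 5.34% and 6.68%. The 709 regions include the 70 with no read in the 9 libraries, so part of this deficit follows from regions that missed the set by the uncut limit alone.

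Some regions were listed in the files of a regenerating time with no counterpart of identical coordinates in the uncut files. With the unread regions left out, since the rule gives each of them a counterpart, these were 44 of 754 regions inside clusters in the 14 h files (5.84%), against 26.0% over the genome. In the 2.5 h files they were 13 of 727 (1.79%), against 11.3%.

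The deficit faded with distance from the nearest unread region. Regions within 0.5 kb summed to 15.9 ± 1.26% of the uncut mean at 2.5 h, 14.1 ± 1.17% at 14 h and 17.0 ± 1.40% at 16 h. Between 1 and 2 kb the level was 53.1 ± 2.28%, 50.9 ± 0.82% and 52.8 ± 0.97% at the 3 times, and between 2 and 5 kb it was 73.0 ± 5.84%, 73.9 ± 3.28% and 77.1 ± 3.49%. Beyond 100 kb on chromosomes 1, 2 and 4 it reached 104.2 ± 5.24%, 105.6 ± 0.55% and 105.2 ± 2.23%, close to the 106.9 ± 5.09%, 105.4 ± 1.17% and 104.8 ± 0.55% of chromosomes 3 and 5. In summed CPM, the 3 times lay within a few percentage points of each other at every distance, despite the different depth of their libraries. The share of regions with no read in the 3 libraries of a time did differ. Within 0.5 kb it was 67.0% at 2.5 h, 33.9% at 14 h and 36.9% at 16 h, and between 2 and 5 kb 19.2%, 4.18% and 6.73%. The shares of CPM are relative to all shared regions, so reads missing near the set raise the level elsewhere slightly.

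By edgeR's quasi-likelihood test with Benjamini-Hochberg adjustment over all regions tested, 1165 of 3346 regions within 5 kb of an unread one passed as lower at 2.5 h (34.8%), 1071 of 3350 at 14 h (31.97%) and 1311 of 3342 at 16 h (39.2%). Over all regions tested, the unread ones included, 7.93% were lower at 2.5 h, 5.34% at 14 h and 6.68% at 16 h. The share was 69.8%, 65.8% and 73.0% within 0.5 kb at the 3 times, 20.6%, 17.7% and 22.6% between 2 and 5 kb, and 4.99%, 2.10% and 3.32% beyond 100 kb. On chromosomes 3 and 5 it was 4.34%, 1.90% and 2.43%. Neighbours called higher numbered 0 at 2.5 h, 14 at 14 h and 40 at 16 h with edgeR, and 2, 101 and 110 with DESeq2. Leaving out 1 uncut library brought the neighbours called lower to 394 to 471 at 2.5 h and 586 to 670 at 16 h, and to 655 at 14 h without replicate 1. At 2.5 h these were 12.1% to 14.4% of the neighbours tested, against 3.47% to 3.99% of all regions tested. At 16 h only 2562 to 2580 neighbours were tested, and the shares were 22.9% to 26.0%, against 2.57% to 3.02%. Those at 14 h were 19.5% against 2.73%. With all 12 libraries in 1 fit, the neighbours called lower were 523 at 14 h (15.8%, against 2.31%) and 177 at 16 h (5.33%, against 1.49%). In a simulation that changed 200 regions, the test recovered 0% of 4-fold losses at 2.5 h, 72% at 14 h and 64% at 16 h. Far more regions were called in the data, which makes the adjusted cutoff less strict there. The simulation therefore cannot show how large the changes behind the calls at 2.5 h were. Nothing in the labels says that replicates came from separate plants, so p-values measure the spread between these libraries, which may be technical. The 3 comparisons share the uncut libraries, and depth is lower in every regenerating library than in any uncut one; the part of depth in the count of calls was not tested.

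**Figure D5:**
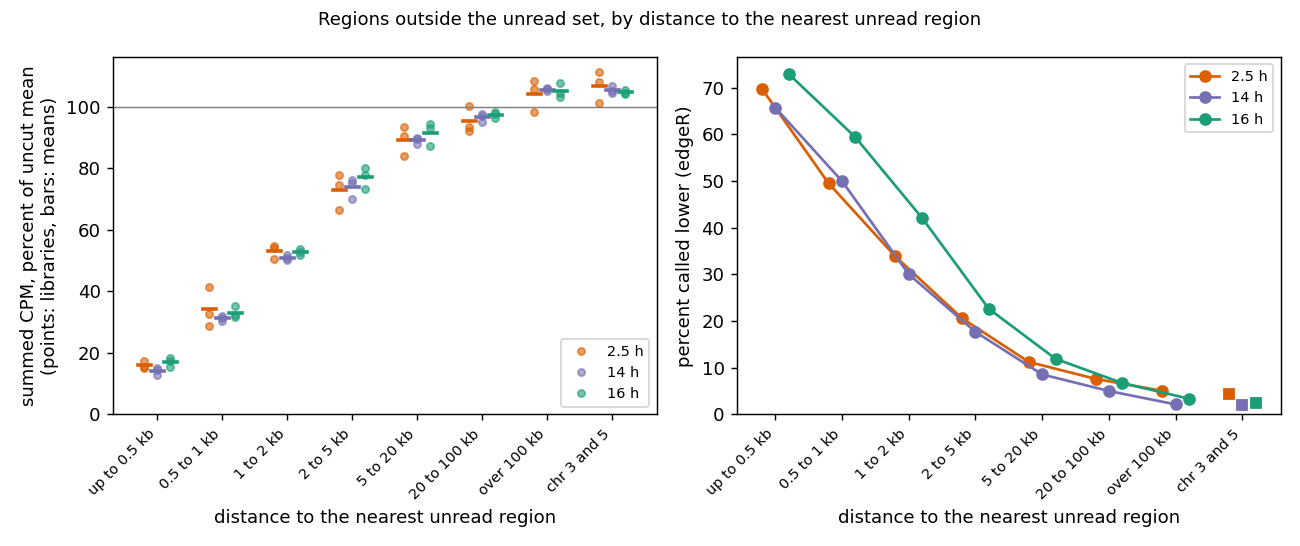
Shared regions outside the set, by distance to the nearest unread region on chromosomes 1, 2 and 4, with chromosomes 3 and 5 at the right. The left panel gives the summed CPM of each library as percent of the uncut mean (points, with bars for the mean of 3 libraries), whose means lie between 14.1% and 17.0% within 0.5 kb and between 104.2% and 105.6% beyond 100 kb; the right panel gives the percent of tested regions that edgeR called lower, between 65.8% and 73.0% within 0.5 kb.

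The parts of chromosome 2 before and after its last unread region also differed in the share called lower. Among regions over 5 kb from an unread one, 9.26% were lower at 2.5 h, 7.27% at 14 h and 9.18% at 16 h up to the last unread region. After it the shares were 4.58%, 1.32% and 2.39%, close to those of chromosomes 3 and 5. These parts differ in distance to the set as well: gaps between unread regions reached 366106 bp at most, while 10.4 Mb followed the last one. Since the share called lower fell with distance, distance and part cannot be told apart here. The shares on chromosome 1 were 6.31%, 3.14% and 4.28%, and those on chromosome 4 were 7.51%, 5.39% and 8.14%. Whether reads of these regions can also be placed elsewhere in the genome was not examined.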

How the data were processed

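ATAC-seq counts per region of 12 libraries were used as the authors deposited them: whole-number read counts, 1 file per library. Per the submitters' processing notes, the build was TAIR10 and the tools were MACS2, HOMER, Bowtie2, DESeq2 and SAMtools. Settings, duplicate removal and the handling of reads with several matches were not given in the sources used here. Region class, gene, distance to the transcription start, log2 fold change and adjusted p-value come from the authors' deposited table for 14 h. Gene names were matched to loci on the region's own chromosome through RefSeq.

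The set follows the rule in the opening. The members, families and lists were chosen with earlier results of these data known. The test was that of edgeR 4.0.16 under R 4.3.3, run on the 6 libraries of each comparison: TMM, filterByExpr, the quasi-likelihood test and Benjamini-Hochberg adjustment with a threshold of 0.05, checked on simulated counts in which 200 regions were changed. Named regions are the 8 highest in uncut roots, those of the 4 longest runs, genes with at least 3 regions all unread, up to 3 per family and the 3 widest. DESeq2 1.42.0 and the other alternatives are given at the end. Sequences were not analysed here.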

Additional observations from a re-analysis of the deposited data

How the results depend on the processing

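All unread regions lay on chromosomes 1, 2 and 4 under every alternative run for the rule. With CPM above 10 in each uncut library the set had 277 regions, of which 55.2% were in clusters. Clusters joined at 2 kb held 60.1% and at 50 kb 89.96%. Leaving out 1 library at a time gave 1405 to 1554 regions, 100% of them on the 3 chromosomes and 78.8% to 80.2% in clusters. Neighbours called lower at 2.5 h, 14 h and 16 h numbered 584, 565 and 640 within 1 kb and 1916, 1643 and 2107 within 20 kb. With all 12 libraries in 1 fit, 523 were lower at 14 h and 177 at 16 h; the cause was not tested. Leaving out 1 library gave 394 to 1519 for 2.5 h, 655 to 1544 for 14 h and 586 to 1331 for 16 h. The low values come from leaving out uncut replicates 1, 2 and 3: 471, 406 and 394 for 2.5 h, 586, 651 and 670 for 16 h, and 655 for 14 h without replicate 1. At 16 h, 2562 to 2580 neighbours were tested in those fits, against 3342 with all 6 libraries. DESeq2 called 920, 1540 and 1519 neighbours lower. Over all regions it called 11587 lower for 14 h and 9925 for 16 h, against 5285 and 6610 with edgeR, and 277, 7106 and 6898 higher at the 3 times, against 49, 750 and 2160. In all 41 alternatives with calls, the share called lower was higher among neighbours than among all regions tested, by 2.404 to 11.1 times. Replicate numbers did not pair the libraries, with correlations of same-numbered deviations between -0.035 and 0.0066. With the replicate block, 0 neighbours were lower at 2.5 h, 777 at 14 h and 927 at 16 h, and 0, 1071 and 1253 of the unread regions. At 2.5 h, the log2 fold change over all regions had a median of -0.39 with TMM, -0.23 with DESeq2 size factors and -0.06 with total counts, and calls at 2.5 h are relative to TMM. Depth limits the set: a count of 0 in a 16 h library allows up to 2.42 CPM.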
